A study of Rattus norvegicus with 12 samples.

Results

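The comparison described here is that of Eviprostat with vehicle in the prostates of sham-operated rats. It rests on 6 of the study's 12 arrays, chosen by their titles: 3 of the sham/Eviprostat group and 3 of the sham/vehicle group. All rats were males aged 10 weeks, in 4 groups of 5 or 6 animals. Both groups compared here had a sham operation, and their dosing began 5 days after it. Treatment is given as 5 days for every group. The sham/Eviprostat rats received 18 mg/kg Eviprostat per dose (36 mg/kg daily) and the sham/vehicle rats received 0.1% Tween 80, the same vehicle. Prostates were removed 2 h after the final dose, on the sixth day. The other 6 arrays, from rats whose bladder outlet was partly obstructed and that had vehicle or the same Eviprostat dose from the day after surgery, enter only where named. Strain and the origin of the animals are not given in the sources used here.

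Eviprostat is a mixture of plant extracts and wheat germ oil given for urinary symptoms of an enlarged prostate. The rat prostate is a set of lobes that secrete proteins under androgen control, and the coagulating gland, one of these lobes, lies along the seminal vesicle. The seminal vesicle makes the Svs proteins, which coagulate semen into the copulatory plug, together with protease inhibitors that keep the clot in check. Around the glands lie smooth muscle, nerves of the pelvic plexus and, near the urethra, striated muscle.

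On each array the group's RNA was labelled with the red dye Cy5, and sham/vehicle RNA with the green dye Cy3. On the 3 sham/vehicle arrays both dyes therefore held sham/vehicle RNA. Values are log2 ratios of Cy5 over Cy3 after background correction and loess, and a difference is the mean log2 ratio of the sham/Eviprostat arrays minus that of the sham/vehicle arrays. Tissue was pooled within a group before labelling, so the p-values measure the spread between arrays of a pool, although the labels call the arrays biological replicates. Each of the 3 slides held 1 array of every group at a fixed place, so a place on the slide and a group cannot be told apart, and slide 1 was scanned in another run than slides 2 and 3. Labelling started from 1500 ng of RNA for sham/vehicle and 300 ng for sham/Eviprostat, so RNA amount and group cannot be told apart either. On the 6 arrays 75.6% to 87.2% of spots had a Cy5 signal well above background. Of 19 prostate secretory genes measured, 17 were well above background on all 6 arrays, among them Pbsn (probasin), a check of the tissue label. Of 17098 genes, each read by its brightest kept probe, 14619 met the same criterion.

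Eviprostat-treated sham rats differed from vehicle-treated ones in a limited set of genes, and increases outnumbered decreases. At an adjusted p under 0.05 (limma with Benjamini-Hochberg adjustment over all kept probes), 214 genes were higher (1.25%) and 49 were lower (0.287%) in sham/Eviprostat. Of these, 95 higher and 11 lower genes differed at least 2-fold. All 263 moved in the same direction on each of the 3 slides, which is favoured by their having been called on these same arrays. Among the cell type marker lists, the median difference was highest for seminal vesicle genes (4.80) and skeletal muscle (1.28). Smooth muscle (0.57) and nerve (0.49) came next. Of the 263 called genes, 62 were on any list, so the lists cover only part of the calls. Decreases were smaller, with the lowest difference at -1.85. The median difference over all genes was 0.00934.

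The counts depended on how the spread was modelled. With the slide as a replicate block, 690 genes were higher (4.04%) and 352 lower (2.06%), and all 263 genes were among them. On slides 2 and 3 alone, 392 were higher (2.29%) and 132 lower (0.772%). With median centring in place of loess, 52 genes were higher and 0 lower by the same limma test. The share of probe calls that were increases was 56.9% in the fit above, with 314 higher and 238 lower probes. Over the settings run, that share ranged from 50.7%, with the replicate block, to 96.9%, with median centring. Leaving out one array moved the count of lower genes by over 1.5 times in each case: it was 23, 15 and 15 without sham/vehicle arrays 1, 2 and 3, and 27, 18 and 18 without sham/Eviprostat arrays 1, 2 and 3. The count of higher genes fell to 124 and 117 without sham/vehicle arrays 2 and 3, and to 112 and 121 without sham/Eviprostat arrays 2 and 3.

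**Figure D1:**
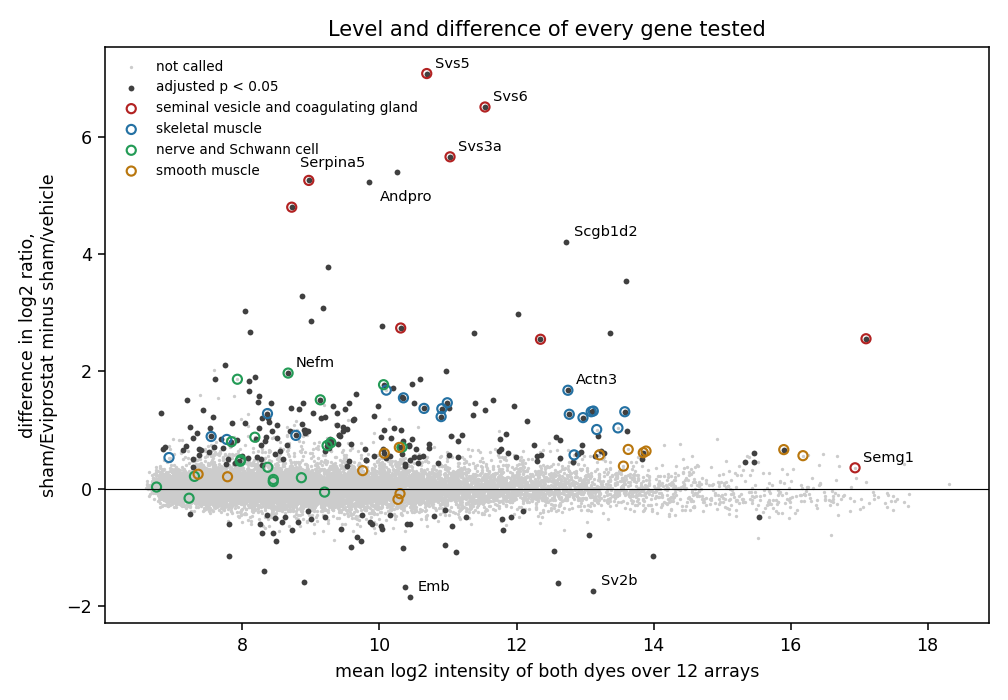
Difference in log2 ratio between sham/Eviprostat and sham/vehicle (vertical axis) against the mean log2 intensity of both dyes over 12 arrays (horizontal axis) for 17098 genes. Grey points were not called, dark points had an adjusted p under 0.05, and rings mark members of 4 marker lists. Seminal vesicle genes reach 7.08, skeletal muscle genes lie near 1.28 and most genes lie at 0.

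Genes of the seminal vesicle and coagulating gland rose most in the ratio. Of 9 list members measured, 8 were higher and 0 lower, with called differences from 2.55 to 7.08, against 1.25% of all genes called higher. The list median was 4.80, or 5.23 with the members that were dim in sham/vehicle put at their lower bound. In RNA from a whole tissue, more cells of a type and more RNA per cell cannot be told apart. The Cy5 level summed over the 9 members ran from 333168 to 396983 on sham/vehicle arrays and from 749592 to 1268590 on sham/Eviprostat arrays.

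Svs5, a small protein of seminal vesicle fluid, had the largest difference in the ratio of all genes, while in Cy5 alone that of Svs6 was larger. Its log2 ratio was -0.05, 0.04 and 0.20 on the sham/vehicle arrays and 6.65, 7.33 and 7.43 on the sham/Eviprostat arrays of slides 1, 2 and 3. All 3 treated arrays lay far above all 3 controls. The difference was 7.08 ± 0.35 (SE, n = 3 arrays per group), a 135-fold higher ratio, with a limma adjusted p of 8.09e-07. Raw Cy5 of Svs5 on the sham/vehicle arrays was 380, 462 and 472, below the array medians of 402, 576 and 597. Svs5 was thus dim in the controls, and its difference ran from 6.54 to 9.48 over the alternative settings. Its close relative Svs6 read 0.39, -0.07 and 0.29 under vehicle and 7.22, 6.41 and 6.50 under Eviprostat, a difference of 6.51 ± 0.31 (limma adjusted p = 5.16e-07). Svs3a, a protein of the seminal clot, read -0.10, 0.10 and 0.09 under vehicle and 5.44, 5.78 and 5.84 under Eviprostat. That difference was 5.66 ± 0.13 (limma adjusted p = 4.14e-10). None of these groups overlapped. Over all 17098 genes, 1689 had all 3 treated arrays above all 3 controls, and 1578 had all 3 below. Genes named as called were chosen for their differences on these arrays. The choice therefore favours a lack of overlap wherever it is given here and below.

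The other called members rose less in the ratio, and they were chosen for naming after their values were seen, as were all genes named beyond the rule given with the methods. Svs3b, a near copy of Svs3a, went from -0.23, 0.01 and -0.05 to 2.10, 2.67 and 2.60 and differed by 2.55. Svs1, a seminal protein related to copper amine oxidases, went from -0.04, 0.07 and -0.18 to 2.39, 2.85 and 2.83 and differed by 2.74. Svs4, an abundant androgen-dependent protein of the seminal vesicle, went from 0.13, 0.44 and 0.47 to 3.22, 2.73 and 2.76 and differed by 2.56. The groups did not overlap in any of these genes.

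Semg1, the semenogelin of the copulatory plug, was the member that was not called. Its log2 ratio was 0.00, -0.22 and -0.12 under vehicle and 0.55, -0.03 and 0.22 under Eviprostat. The groups overlapped, since the lowest treated array lay below the highest control array, and the difference was 0.36 ± 0.21 (limma adjusted p = 0.666).

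A pair of seminal genes was too dim to stand well above background on the 3 sham/vehicle arrays and has only a bound there, taken from Cy5 alone against, on each array, the higher of the probe's own signal and the lowest signal that was well above background. For Spink1l that was its own signal. Svs7, a small protein of the Ly6 family, had a Cy5 mean of 6.63 in sham/vehicle and 12.72 in sham/Eviprostat on the log2 scale. In Cy5 alone it was at least 66.3-fold higher, while the ratio was 38.2-fold higher (limma adjusted p of the ratio = 1.14e-05). Spink1l, which resembles Kazal-type trypsin inhibitors, had Cy5 means of 6.62 and 11.86. It was at least 37.6-fold higher in Cy5 alone and 27.8-fold higher in the ratio (limma adjusted p of the ratio = 8.54e-06). Both were well above background on all 3 sham/Eviprostat arrays. Bounds from a single dye are open to dye bias, and these are no floor for the ratio, which was lower for both genes.

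**Figure D2:**
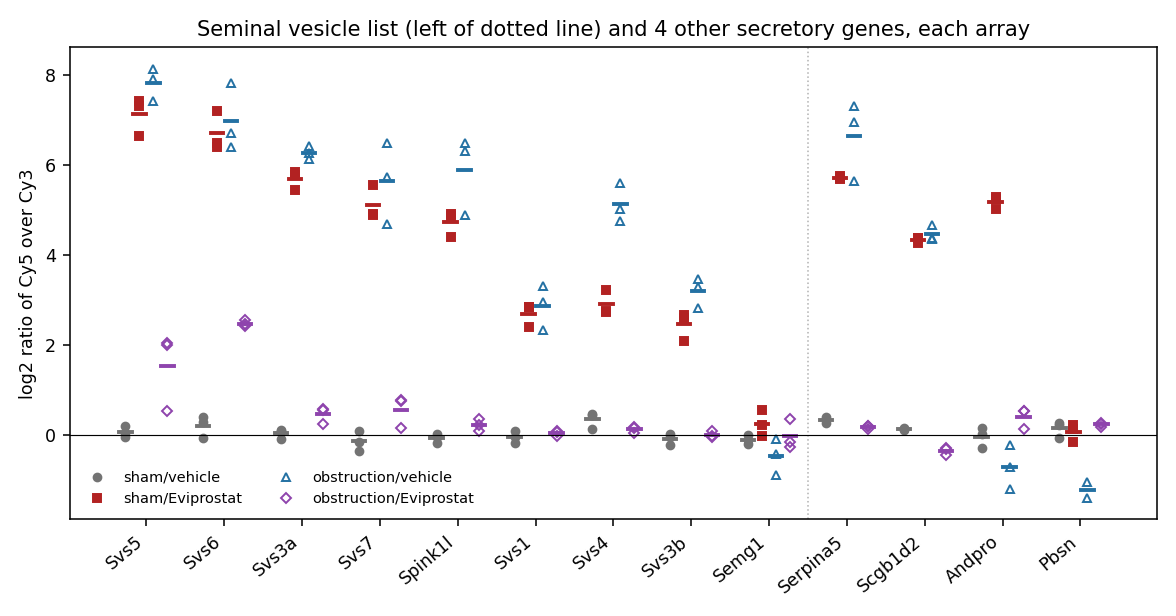
Log2 ratio of Cy5 over Cy3 (vertical axis) on each of the 12 arrays for the seminal vesicle list and 4 other secretory genes; points are arrays and short lines are group means. Sham/Eviprostat and obstruction/vehicle arrays are high for the Svs genes, Andpro is above 5 on the sham/Eviprostat arrays alone, and Semg1 and Pbsn stay near 0 in both sham groups.

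The Cy3 channel, which held sham/vehicle RNA on every array, also differed at these probes. After centring each array on its median, Cy3 differed at least 2-fold between the sham/Eviprostat and sham/vehicle arrays for 10 of 17098 genes, and 6 of the 10 were members of the seminal vesicle list. The SD of that difference over all genes was 0.0689 on the log2 scale. For Svs6, raw Cy3 was 389, 394 and 386 on the sham/vehicle arrays and 1839, 1774 and 1732 on the sham/Eviprostat arrays. Svs1 went in the same direction, from 341, 363 and 384 to 1663, 1614 and 1725. Svs4 went the other way, from 169749, 124207 and 127166 to 48705, 22033 and 20802. The cause was not tested.

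The Cy5 channel alone therefore gave other sizes. Raw Cy5 of Svs6 was 460, 503 and 543 on the sham/vehicle arrays and 209279, 506530 and 536604 on the sham/Eviprostat arrays. From Cy5 alone the difference was 9.96 for Svs6, 9.48 for Svs5 and 6.51 for Svs1, each above its difference in the ratio. Svs4 differed by only 0.25 in Cy5 alone, against 2.56 in the ratio. Its raw Cy5 was 128988, 584720 and 603034 under vehicle and 422724, 606571 and 593111 under Eviprostat, and Cy5 was saturated on 1 sham/vehicle and 2 sham/Eviprostat arrays. The Cy5 difference of Svs4 is therefore capped, and how far each dye accounts for its change in the ratio was not tested. With Cy5 alone, 7 of the 9 members were called higher.

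**Figure D3:**
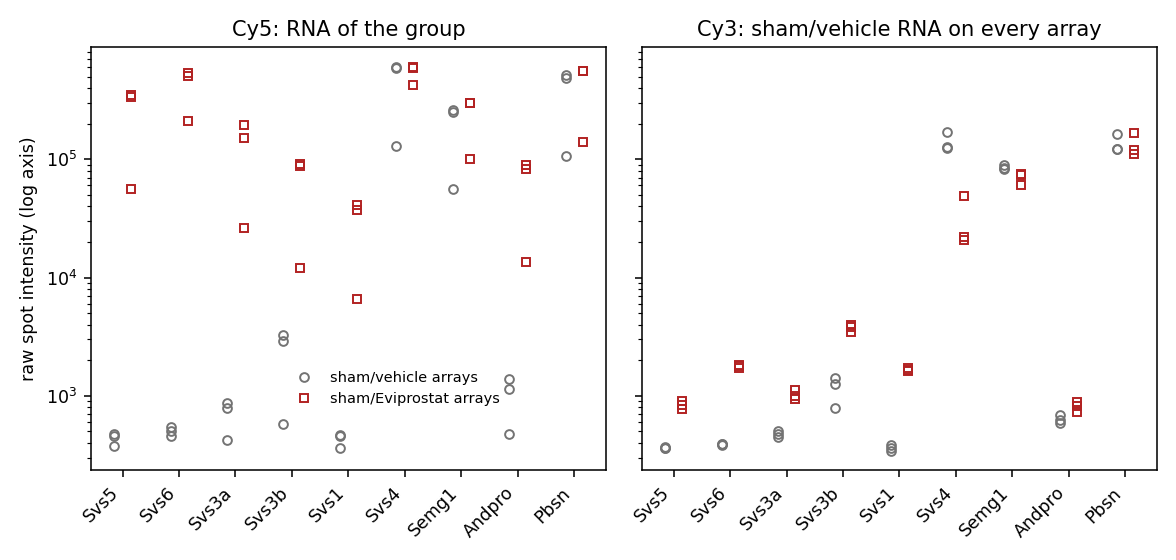
Raw spot intensity on a log axis (vertical) of Cy5 (left) and Cy3 (right) for 9 genes on the 3 sham/vehicle and 3 sham/Eviprostat arrays; each point is 1 array. Cy5 of Svs6 lies between 209279 and 536604 on the sham/Eviprostat arrays and from 460 to 543 on the sham/vehicle arrays, while Cy3 of Svs4 is lower there and Cy3 of Svs1, Svs3b, Svs5 and Svs6 is higher.

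Svs3b, Svs4, Svs3a, Svs6 and Svs5, whose ratio rose, lie side by side with Semg1, which was not called. Svs7, whose ratio also rose, lies on chromosome 8. For Svs4, Cy3 differed by -2.31 and Cy5 was saturated on some arrays, so whether its RNA rose was not settled. The probes of Semg1, Svs3b, Svs4, Svs3a, Svs6 and Svs5 span 84.9 kb of rat chromosome 3 (build rn3), from chr3:155087023 at Semg1 to chr3:155171924 at Svs5. Within 200 kb of that span 16 genes were measured, of which 7 were higher and 1 was lower. Beyond the Svs genes the higher ones were the unnamed gene RGD1563818 (2.01, limma adjusted p = 0.0034) and Slpi (2.98). Wfdc5, on the Semg1 side, was the lower one, at -1.67. The outermost genes of the window were near 0, with Sdc4 at -0.01 and Tomm34 at -0.05, neither called. The promoters of neighbours whose ratio rose, and of the neighbour that was not called, are shown 5′ to 3′. They cover 250 bases before the start of transcription, from RefSeq (build GRCr8). Capitals mark the hexamers TATAAA (the usual core promoter box) and TGTTCT (a core hexamer of steroid hormone response elements), searched on both strands, with no overlap between them. The regions are chr3:173415271-173415520 on the plus strand for Svs5, chr3:173397442-173397691 plus for Svs6, chr3:173380835-173381084 plus for Svs3a, chr3:173351299-173351548 minus for Svs3b, chr3:173369879-173370128 minus for Svs4 and chr3:173332262-173332511 minus for Semg1.
Svs5: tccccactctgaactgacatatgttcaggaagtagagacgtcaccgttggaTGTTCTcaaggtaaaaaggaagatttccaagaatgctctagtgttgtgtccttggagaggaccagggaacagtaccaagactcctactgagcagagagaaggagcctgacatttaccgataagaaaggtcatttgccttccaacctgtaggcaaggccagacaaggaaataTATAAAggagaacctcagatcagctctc
Svs6: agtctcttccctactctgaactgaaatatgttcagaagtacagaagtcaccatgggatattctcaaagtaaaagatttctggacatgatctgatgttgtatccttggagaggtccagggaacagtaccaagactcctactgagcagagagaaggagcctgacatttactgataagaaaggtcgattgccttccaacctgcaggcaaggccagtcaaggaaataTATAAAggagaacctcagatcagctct
Svs3a: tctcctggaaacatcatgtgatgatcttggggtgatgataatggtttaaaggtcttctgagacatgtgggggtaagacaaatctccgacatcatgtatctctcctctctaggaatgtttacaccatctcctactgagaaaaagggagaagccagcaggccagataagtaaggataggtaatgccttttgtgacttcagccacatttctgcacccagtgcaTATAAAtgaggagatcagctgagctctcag
Svs3b: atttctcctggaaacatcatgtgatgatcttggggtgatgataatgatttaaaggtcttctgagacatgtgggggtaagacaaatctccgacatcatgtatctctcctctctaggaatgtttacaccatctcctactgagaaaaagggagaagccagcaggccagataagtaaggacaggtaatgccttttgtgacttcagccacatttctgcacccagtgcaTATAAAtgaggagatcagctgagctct
Svs4: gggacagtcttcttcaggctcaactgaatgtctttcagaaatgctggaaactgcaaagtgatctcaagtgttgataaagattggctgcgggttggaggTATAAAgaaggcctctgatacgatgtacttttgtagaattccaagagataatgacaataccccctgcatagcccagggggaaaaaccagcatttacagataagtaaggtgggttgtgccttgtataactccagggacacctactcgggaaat
Semg1: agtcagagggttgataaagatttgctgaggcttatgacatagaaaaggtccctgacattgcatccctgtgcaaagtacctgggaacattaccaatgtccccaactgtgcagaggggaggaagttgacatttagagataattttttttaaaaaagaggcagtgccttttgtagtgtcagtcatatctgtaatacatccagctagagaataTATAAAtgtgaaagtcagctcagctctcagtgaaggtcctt

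TATAAA lay 28 bases before the start in Svs5, 27 in Svs6, 30 in Svs3a, 27 in Svs3b and 41 in Semg1. Positions were counted to its first base. In Svs4, whose ratio also rose, TATAAA lay 152 bases before the start. It occurs on either strand in 12.9% of the 33469 promoters of the same length in the table. TGTTCT was found in Svs5 alone among the 6, and 17.5% of all promoters hold it on either strand. The promoters of Svs5 and Svs6 were 86.4% identical in a global alignment and those of Svs3a and Svs3b 96.8%. Those of Svs5 and Svs3a shared 54%, and those of Svs5 and Semg1 50.2%. Transcripts and probe sequences were not compared, so whether a probe reads both members of a pair was not tested. TATAAA thus stood in the promoter of the uncalled neighbour as well.

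Protease inhibitors and secretoglobins, small secreted proteins of genital glands, changed in both directions. Of 26 members measured, 4 were higher and 2 lower, against 1.25% and 0.287% of all genes; with the replicate block the counts were 8 and 4, against 4.04% and 2.06%. Serpina5, the protein C inhibitor of seminal fluid, read 0.39, 0.27 and 0.34 under vehicle and 5.70, 5.77 and 5.71 under Eviprostat, a difference of 5.39 ± 0.31 (limma adjusted p = 2.39e-06). Scgb1d2, a secretoglobin, read 0.11, 0.16 and 0.14 against 4.27, 4.37 and 4.37, a difference of 4.20 ± 0.10 (limma adjusted p = 4.14e-10). Slpi, an inhibitor of leukocyte elastase, read 0.17, -0.08 and -0.05 against 3.05, 3.05 and 2.89 and differed by 2.98, and its second probe gave 2.79. The groups did not overlap in any of the 3. The fourth higher member was Scgb2a1, described with the prostate genes.

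Related genes outside that list were also among the largest increases. The whey acidic protein gene Wfdc21 was higher by 3.78, with 3.53, 3.91 and 3.93 on the treated arrays against -0.01, 0.07 and -0.04. The secretoglobin Scgb1d4 was higher by 3.54, with 3.04, 3.62 and 3.62 against -0.54, 0.13 and 0.05. The glandular kallikreins Klk1c9 and Klk1c2, which cleave secreted proteins, were higher by 3.28 and 2.86. Dnase2b, a nuclease, was higher by 2.77, with 3.50, 2.69 and 2.71 against 0.46, 0.08 and 0.06. Close copies among kallikreins and secretoglobins share sequence, so the member that a probe reads is uncertain. The lower members of the family were Wfdc5, at -1.63, -1.48 and -1.59 against 0.17, 0.10 and 0.03, and Wfdc18, at -1.31, -0.80 and -0.93 against 0.04, 0.13 and -0.01. Whey acidic protein genes thus moved in opposite directions within one comparison.

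Of 19 secretory genes of the prostate proper, 3 were higher and 0 lower, against 1.25% and 0.287% of all genes, and the list median was 0.04. Andpro read -0.30, 0.16 and 0.01 under vehicle and 5.02, 5.30 and 5.25 under Eviprostat, a 37.6-fold higher ratio (difference 5.23 ± 0.21, limma adjusted p = 1.11e-07). Its probe lies at chr3:137993724-137994549 (rn3), far from the Svs genes. Scgb2a1 was higher by 1.52 by its brightest probe, but its other probe gave -0.16. Klk1, tissue kallikrein, was higher by 1.30 (limma adjusted p = 0.00111).

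The rest of that list gave no call. Pbsn, the androgen-driven secretory protein of the prostate, read -0.06, 0.27 and 0.22 under vehicle and -0.16, 0.12 and 0.21 under Eviprostat. The groups overlapped (difference -0.09, limma adjusted p = 0.94). On sham/vehicle arrays the median-centred log2 Cy3 was 8.12 for Pbsn and 7.46 for the uncalled Semg1. For Svs4, with Cy5 saturated on some arrays, it was 8.17. Whether such bright spots understate a difference was not tested. Of 23 androgen target genes, Klk1 was higher and Srd5a2 lower, and the list median was -0.02. Srd5a2, which turns testosterone into dihydrotestosterone, read -0.63, -0.50 and -0.36 against -0.12, 0.15 and 0.19, a difference of -0.57 (limma adjusted p = 0.0493), and it lost its call under 10 of 18 alternatives, among them leaving out sham/vehicle array 2 or 3 or any sham/Eviprostat array. It was also the single called member, of 20, on the list of adrenergic, muscarinic and related drug targets.

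Skeletal muscle genes rose together. Of 20 members measured, 14 were higher and 0 lower, all 20 differences were above 0, and the median was 1.28. Over all genes 1.25% were called higher, and 9008 of 17098 differences were above 0. On slides 1, 2 and 3 taken alone the median was 1.21, 1.30 and 1.29. Called members ran from 0.89 to 1.68. The summed Cy5 level of the list was 96527 to 119940 on sham/vehicle arrays and 239110 to 289682 on sham/Eviprostat arrays. With median centring 3 of the 20 were called, with a list median of 1.29.

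Among these genes Actn3, the alpha-actinin of fast fibres, read -0.15, -0.14 and -0.23 under vehicle and 1.94, 1.33 and 1.25 under Eviprostat, a difference of 1.68 ± 0.21 (limma adjusted p = 0.00175). Atp2a1, the calcium pump of fast-fibre sarcoplasmic reticulum, read -0.10, -0.21 and -0.17 against 1.82, 1.20 and 1.14, a difference of 1.55. Pvalb, the calcium buffer of fast fibres, read 0.68, -0.04 and -0.03 against 2.20, 1.41 and 1.40, a difference of 1.47. Slide 1 gave the highest value of each gene in the treated group. The slow-fibre genes Myh7 and Tnnt1, at 0.84 and 0.53, were not called. Muscle creatine kinase Ckm and the troponin Tnni2, chosen after their values were seen, were among the most precise members, at 1.27 and 1.31. The part of muscle tissue in the pooled sample was not tested.

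Smooth muscle genes rose less, and their counts stand beside 1.25% of all genes called higher, or 4.04% with the replicate block. Of 14 members, 4 were higher and 0 lower, with a median of 0.57; with the replicate block 9 were higher, 2 with a normexp offset of 16, and 0 with median centring by the same test. All 4 called members lay between 0.61 and 0.71. Cnn1, calponin, read -0.18, -0.38 and -0.31 under vehicle and 0.36, 0.45 and 0.43 under Eviprostat, a difference of 0.71 ± 0.10 (limma adjusted p = 0.00439). Tpm2, a tropomyosin, differed by 0.67, and its 3 probes gave 0.57 to 0.76. Myh11, smooth muscle myosin, differed by 0.62 for the brightest probe, while the other gave -0.01. The summed Cy5 level of the list was 160684 to 195719 under vehicle and 245888 to 265564 under Eviprostat. Without any of the 3 sham/vehicle arrays, or sham/Eviprostat array 2 or 3, 2 members were called.

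Nerve genes also rose, and the increase fell on some members of the list. The share of all genes called higher was 1.25%, and 4.04% with the replicate block. Of 19 members, 7 were higher and 0 lower, from 0.71 to 1.97, with a median of 0.49; with the replicate block 11 were higher. The summed Cy5 level of the list was 5942 to 6609 under vehicle and 11204 to 12425 under Eviprostat. Nefm, a neurofilament of axons, read -0.14, -0.03 and 0.02 under vehicle and 1.59, 2.01 and 2.17 under Eviprostat, a difference of 1.97 ± 0.28 (limma adjusted p = 0.00363). Prph, the intermediate filament of peripheral neurons, read 0.21, -0.02 and -0.03 against 1.69, 1.90 and 1.89, a difference of 1.77 ± 0.17 (limma adjusted p = 0.000208). Uchl1, a neuronal ubiquitin hydrolase, read -0.01 on each control array and 1.79, 1.39 and 1.35 on the treated arrays.

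The called members included axon genes (Nefl at 0.80, Tubb3 at 0.79) and Pmp22, a protein of peripheral myelin, at 0.71. Glial markers S100b and Sox10 were at 0.03 and 0.19, and the cholinergic enzyme Chat was at -0.16, none of them called. The noradrenergic enzymes Th and Dbh, at 0.37 and 0.47, passed with the replicate block and not in the fit without it. Without sham/vehicle array 1, 2 or 3, or without sham/Eviprostat array 2 or 3, the count of called members was 3, and with median centring it was 2.

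**Figure D4:**
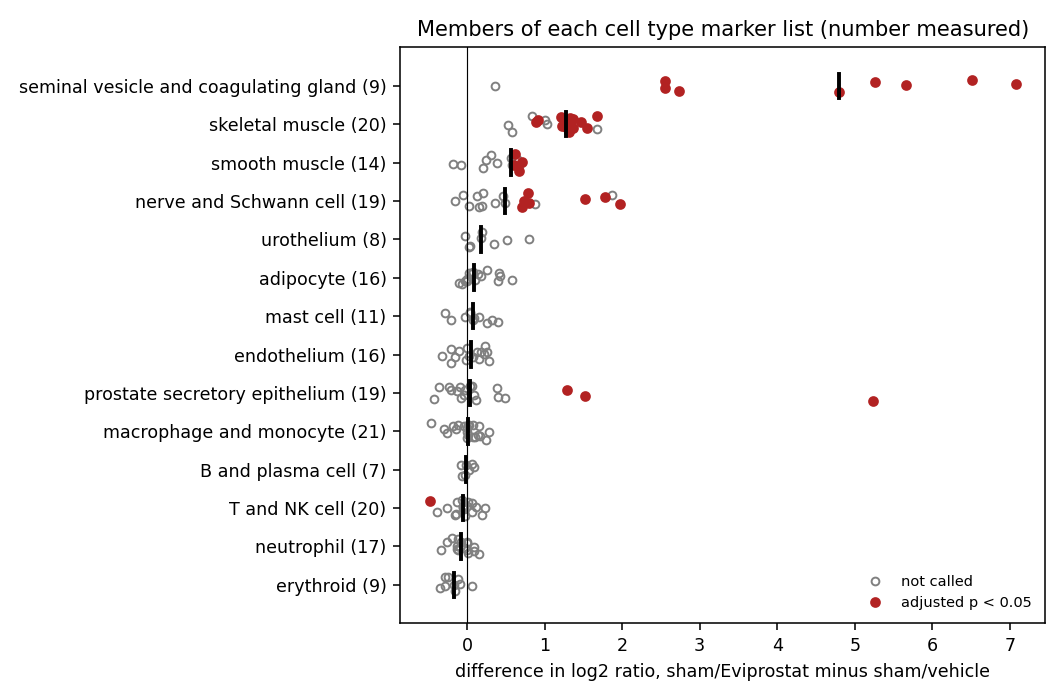
Difference between sham/Eviprostat and sham/vehicle (horizontal axis, log2) for each member of 14 cell type marker lists; filled points had an adjusted p under 0.05 and black bars are list medians. Seminal vesicle, skeletal muscle, smooth muscle and nerve lists lie to the right, with medians of 4.80, 1.28, 0.57 and 0.49, and the leukocyte lists lie around 0.

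Leukocyte lists gave 1 call in all, a count near the share of all genes called (1.25% higher and 0.287% lower). Of 21 macrophage and monocyte genes, 17 neutrophil genes, 7 B and plasma cell genes and 11 mast cell genes, 0 were called by limma, and of 20 T and NK cell genes 1 was lower. At an adjusted p under 0.05 with the replicate block, 1 macrophage gene was higher and 1 lower, and 1 mast cell gene was lower. The list medians were 0.01 for macrophages, -0.07 for neutrophils, -0.02 for B cells and 0.08 for mast cells, beside 0.00934 for all genes. The macrophage marker Lyz2, lysozyme, read -0.57, -0.41 and -0.39 against -0.15, 0.03 and 0.11; its difference of -0.46 did not pass (limma adjusted p = 0.0914), but it did with the block (0.00413) and with the scanner software's log ratio (0.00284). Ctla4, an inhibitory T cell receptor, was at -0.48, with -0.14, -0.16 and -0.23 against 0.46, 0.20 and 0.26, though Cy5 alone gave -0.16.

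None of 29 chemokine genes, 27 cytokine and receptor genes or 24 complement and acute phase genes was called by limma, while the replicate block called 2 chemokine and 1 cytokine genes higher and 2 complement genes lower. Among all genes limma called 1.25% higher and 0.287% lower, and the block 4.04% and 2.06%. Il1b, the inflammatory cytokine, read 0.03, -0.08 and -0.05 under vehicle and -0.11, -0.24 and -0.20 under Eviprostat, a difference of -0.15 ± 0.13 (limma adjusted p = 0.855). Tnf was at -0.08, Ptgs2 (the inducible cyclooxygenase) at 0.05 and Nos2 (the inducible nitric oxide synthase) at 0.01. Il6 was well above background on only 2 arrays of each group, so its level is near the limit of detection. The alarmin Il33 was at 0.60 and the chemokine Ccl21 at 0.45, neither called, though each passed with the block and under other alternatives. Of 19 prostaglandin and leukotriene genes 1 was lower, Ptgds, which makes prostaglandin D, at -0.49 (limma adjusted p = 0.0349).

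Counts for oxidative stress and detoxifying genes stand beside 1.25% of all genes called higher and 0.287% called lower. Of 27 NRF2 and antioxidant genes 0 were called by limma and 2 were lower with the block. Hmox1, heme oxygenase, read 0.14, 0.03 and 0.01 against 0.06, 0.01 and -0.01. Fth1, ferritin heavy chain, was at -0.45 (limma adjusted p = 0.0709, and 0.0207 with the block). Of 31 genes of xenobiotic metabolism 2 were higher: Gstm1, a glutathione transferase, at 0.91, with 1.13, 0.72 and 0.75 against -0.07, -0.02 and -0.03, and Aldh1a1, a retinal dehydrogenase, at 0.51. Mt3, a metallothionein, was at -0.48 and was the called member of 20 polyamine and zinc genes, of which 5 were lower with the block.

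Matrix, glycolytic and chaperone genes had small counts that depended on the setting. They stand beside 1.25% of all genes called higher, 4.04% with the block, and 9008 of 17098 differences above 0. Of 35 extracellular matrix genes 2 were higher and 0 lower (10 with the block), with 30 differences above 0. By the same test the count was 0 with a normexp offset of 16, with median centring, without any one sham/vehicle array and without sham/Eviprostat array 2 or 3. The fibrillar collagen genes Col1a1 and Col1a2 were at 0.87 and 0.63, and the other probes of Col1a1 went down to 0.12. Of 27 hypoxia and glycolysis genes 3 were higher (7 with the block, 0 with median centring, and 1 without sham/vehicle array 3 or sham/Eviprostat array 2 or 3): Aldoa at 0.84, Ldha at 0.76 and Gapdh at 0.64, enzymes of glycolysis. Ldha was the steadiest, with 0.71, 0.62 and 0.65 against -0.09, -0.10 and -0.12.

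Heat shock genes had 1 of 16 members higher (5 with the block), Cryab, a small chaperone abundant in muscle, at 1.46 with 1.79, 1.37 and 1.34 against -0.02, 0.06 and 0.07. The unfolded protein response had 1 of 22 higher (9 with the block), Hyou1, a chaperone of the endoplasmic reticulum, at 0.60. The list medians were 0.28 for both. Aldoa, Gapdh and Cryab are also expressed strongly in muscle, whose markers rose on the same arrays, and the part of muscle in these values was not tested.

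Single genes of other lists rose clearly. Egf, epidermal growth factor, which is secreted by glands, read -0.31, -0.15 and -0.06 under vehicle and 1.21, 1.21 and 1.31 under Eviprostat, a difference of 1.41 ± 0.09 (limma adjusted p = 7.81e-06). Cyp17a1, an enzyme of androgen synthesis, read -0.06, 0.12 and 0.06 against 1.23, 1.31 and 1.19, a difference of 1.20 ± 0.10 (limma adjusted p = 4.51e-05). Neither gene's groups overlapped. Sgk1, a kinase induced by glucocorticoids, was higher by 0.85, yet it was the single called gene of 16 on the glucocorticoid list, whose median was -0.09.

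Smaller calls were scattered, beside 1.25% of all genes called higher, or 4.04% with the block. Aurkb, a mitotic kinase, was at 0.60 on one probe and -0.08 on the other, and Mki67, a proliferation marker, was at 0.16 without a call. Of 34 cell cycle genes 1 was called. Jun (an immediate early transcription factor, 0.50), Igfbp6 (an IGF binding protein, 0.43), Hmgcs1 (cholesterol synthesis, 0.43) and Stat2 (interferon signalling, 0.41) were each called with adjusted p between 0.0357 and 0.0494. Of 36 respiratory chain genes, 16 fatty acid synthesis genes, 17 circadian clock genes and 21 apoptosis regulators 0 were called by limma, and 1 of each was called higher with the block.

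The lowest named genes were smaller in effect and mixed in function. Emb, embigin, which escorts lactate transporters to the membrane, read 0.03, 0.25 and 0.12 under vehicle and -1.87, -1.63 and -1.65 under Eviprostat, a difference of -1.85 ± 0.14 (limma adjusted p = 2.14e-05). Sv2b, a glycoprotein of synaptic and secretory vesicles, read 1.04, 0.36 and 0.28 against -0.86, -1.30 and -1.38, and it was the gene of this set with the widest control values. Plac8, a small cysteine-rich protein, read -0.07, 0.04 and 0.04 against -1.66, -1.59 and -1.54, a difference of -1.60 ± 0.10. In none of these genes did the groups overlap.

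Secreted defence and transport proteins were among the others. Defb1, an antimicrobial defensin of epithelia, was at -1.15, with -1.44, -1.02 and -0.98 against -0.23, 0.16 and 0.10. Car6, a secreted carbonic anhydrase, was at -1.39 with a limma adjusted p of 0.0416. Pla1a, a phospholipase, read -0.97, -0.98 and -0.93 against -0.04, 0.00 and 0.00. Slc38a11, an amino acid transporter, was at -0.79.

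Rbm38, an RNA-binding protein, was at -0.90, and the corepressor gene Cbfa2t3 at -0.76. For 3 genes the second kept probe gave another value: Gys2, liver glycogen synthase, was at -1.59 and -0.58, Myo5c, an epithelial motor protein, at -1.07 and -0.03, and Atp2b3, a plasma membrane calcium pump, at -0.89 and 0.17. All of these lower genes lost their call under median centring.

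The effect of Eviprostat in sham rats was set against its effect in obstructed rats, which was measured on the other 6 arrays. The test of the difference between the effects called 1746 genes (10.2%). Among the genes called here it called 171 of 214 higher genes, all with a lower effect in obstructed rats, and 32 of 49 lower genes, 31 of them with a higher effect there. The sham effect that chose these genes is subtracted in the difference, so its sign is favoured by the choice and the counts are a description. The direction itself was opposite in the means of obstructed rats for 148 of the 214 and 27 of the 49. Sham rats were dosed from 5 days after surgery and obstructed rats from the day after it, so obstruction and time since surgery cannot be told apart in this difference.

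Seminal vesicle genes showed a wide contrast, with Cy5 of Svs5 and Svs6 saturated on 2 of 3 obstruction/vehicle arrays. Svs5 was at 7.08 in sham rats and at -6.31 in obstructed rats (difference of effects -13.39, limma adjusted p = 1.9e-08). Svs3a was at 5.66 and -5.83, and Serpina5 at 5.39 and -6.47. Andpro differed from these genes: its effect was 5.23 in sham rats and 1.12 in obstructed rats. Relative to sham/vehicle, which both comparisons share, obstruction under vehicle was at 7.77 for Svs5, 6.24 for Svs3a and 6.31 for Serpina5, and at -0.68 for Andpro. The list medians were 4.80 for Eviprostat in sham rats and 5.78 for obstruction under vehicle, with the sham/vehicle arrays as control of both.

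Eviprostat gave a list median of 1.28 for skeletal muscle in sham rats and 0.56 in obstructed rats, and for Actn3 the effects were 1.68 and 0.92 without a call on their difference (-0.76, limma adjusted p = 0.156). The effect was above 0 in obstructed rats for 16 of the 20 muscle genes, and its difference was called for 3: Ryr1, the calcium release channel (1.28 and -0.31), Cacna1s, its voltage sensor (0.91 and 0.14), and Myh7, slow myosin (0.84 and -1.91). Obstruction under vehicle, which shares the sham/vehicle arrays, had a muscle list median of -1.31. For nerve the medians were 0.49 and -0.30, and Prph was at 1.77 in sham and -1.17 in obstructed rats (difference of effects -2.94, limma adjusted p = 1.47e-05).

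The inflammatory gene Il1b and the antioxidant gene Hmox1 had a large effect in obstructed rats alone. Il1b was at -0.15 in sham rats and at -3.62 in obstructed rats (difference of effects -3.47, limma adjusted p = 6.16e-07), and Hmox1 at -0.04 and -2.36. Tnf was at -0.08 and -0.07, with no call on the difference.

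**Figure D5:**
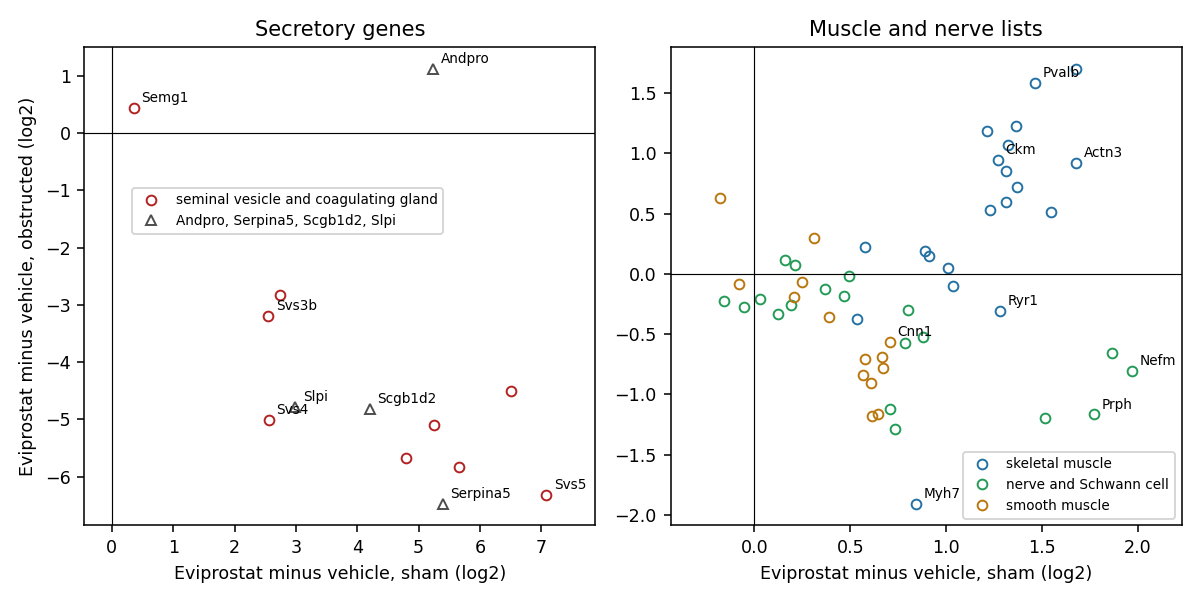
Effect of Eviprostat in obstructed rats (vertical axis, log2) against its effect in sham rats (horizontal axis, log2); each point is a gene, from the seminal vesicle list and 4 secretory genes (left) and from 3 muscle and nerve lists (right). The Svs genes lie at lower right, Andpro lies at upper right with 5.23 and 1.12, and 16 of 20 skeletal muscle genes lie above 0 on both axes.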

How the data were processed

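Each 2-colour 4x44K rat array was quantified by the authors in Agilent Feature Extraction (version 9.5.1.1 in the file headers), with probes placed on rn3 per the file headers. The deposited spot intensities of both dyes were corrected with normexp (offset 50) and loess in limma 3.58.1 (R 4.3.3). The deposited log10 ratios of the scanner software, turned to log2, were an alternative. Probes well above background in Cy5 on at least 3 of 12 arrays were kept (36105 of 41012), and a gene was read by its brightest kept probe. Accessions, symbols or synonyms were matched to RefSeq names (GRCr8) for 10861, 5542 and 3704 probes, 3301 kept the array's symbol and 17604 had none. One limma model over all 12 arrays gave each difference, its SE and Benjamini-Hochberg adjusted p-values. Replicate numbers equal slides, and the replicate block rests on that. Deviations from group means correlated at 0.155 to 0.779 for equal numbers (18 pairs) and -0.702 to 0.558 otherwise (36 pairs). These ranges overlap, and the correlations did not tell slides 2 and 3 apart. Sham/vehicle array 2 correlated at 0.575 with sham/Eviprostat array 2 and at 0.558 with array 3. Labelling started from 1500 ng of sham/vehicle RNA but 300 ng of each other group's.

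Named genes were the 15 highest and 15 lowest called genes with 1 sign on all slides, the 3 largest called members of each gene list (or the member of smallest p) and 10 preset genes. The comparison and the lists were chosen with earlier results of these data known. The fit was also run on simulated data whose noise was independent between arrays. Deviations of the real arrays were correlated, so that run does not cover their error. A few genes that the rule names are not reported here.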

Additional observations from a re-analysis of the deposited data

Results flagged for a closer look

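For 26 genes named for the size of their difference, the effect of Eviprostat differed between obstructed and sham rats by limma's test of the difference itself. Values are the effect in obstructed rats minus that in sham rats, in log2. The genes were chosen for their sham effect, which is subtracted here, so the sign is favoured by the choice. Cy5 of Svs5 and Svs6 was saturated on 2 of 3 obstruction/vehicle arrays, and Svs7 and Spink1l were not well above background in sham/vehicle, so their values are fitted differences and not exact sizes. Among genes higher in sham/Eviprostat the seminal vesicle genes gave -13.39 for Svs5, -11.01 for Svs6, -11.48 for Svs3a, -10.35 for Svs7, -10.48 for Spink1l and -5.57 for Svs1. Other secreted proteins gave -11.86 for Serpina5, -9.02 for Scgb1d2, -9.34 for Scgb1d4, -7.68 for Wfdc21 and -7.77 for Slpi. The kallikreins Klk1c9 and Klk1c2 gave -6.41 and -5.73, Dnase2b gave -5.08 and Andpro gave -4.11.

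Among genes lower in sham/Eviprostat, the difference was 4.10 for Gys2, 3.65 for Wfdc5, 2.03 for Defb1, 2.03 for Plac8 and 1.99 for Slc38a11. It was 1.60 for Myo5c, 1.45 for Sv2b, 1.09 for Pla1a, 1.04 for Emb, 0.92 for Atp2b3 and 0.81 for Cbfa2t3. For Car6, Wfdc18 and Rbm38 it was not called.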

How the results depend on the processing

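Of 62 named genes called, 19 kept their call under every alternative run on them, 43 lost it under at least 1 and 0 changed sign. Counts of calls moved more. Higher probes, 314 in the report's fit, were 62 with median centring, 1771 with the scanner software's log ratio, 1157 with the replicate block, 2373 with the replicate block on the 6 sham arrays alone and 622 on replicates 2 and 3. Lower probes, 238 there, were 2, 1648, 1124, 2084 and 512 under the same settings, and 367 with no background subtraction. Higher genes (214) were 52, 1019, 690, 1366 and 392, and lower genes (49) were 0, 572, 352, 796 and 132, with 101 for no background subtraction and 79 for Cy5 alone. Probes changed at least 2-fold (145) were 78 with no background subtraction, 60 with median centring and 556 with the scanner log ratio. Probes whose effect differed between obstructed and sham rats (3127) were 5744, 1017 and 11713 under those settings and 7922 with the replicate block.

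Leaving out 1 array of a sham group gave 159 to 375 higher and 64 to 162 lower probes, 112 to 252 higher and 15 to 27 lower genes, and 113 to 168 probes changed at least 2-fold. Leaving out 1 array of any group gave 1819 to 5857 probes for the difference of effects, the highest without obstruction/vehicle array 2 and the lowest without obstruction/Eviprostat array 2. The cause of these shifts was not tested. The replicate block added calls for 13 named genes (Slc2a4, Krt7, Lyz2, Tpsab1, Ccl21, Il33, Cfi, RT1-Db1, Fth1, Scd, Bhlhe41, Casp8 and Ndufs1) and changed no other call of a named gene. The number of arrays, all from pooled tissue, limits the precision, and dim or saturated spots limit the sizes of the Svs differences.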
